A study of Mus musculus with 8 samples.

Results

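Elastic fiber and microfibril genes were followed in cultured fibroblastic reticular cells (FRC), the stromal cells that build the collagen scaffold of lymph nodes. The set held 10 of the 55367 genes in the count table: Eln, Fbn1, Fbn2, Mfap2, Mfap5, Fbln5, Efemp2, Emilin1, Lox and Loxl1. They were chosen by gene symbol as parts of 1 structure, with earlier results of these data known, among them the TCM values of Eln and the LA values of Mfap2. Their values for TCM against CCM and for LA against vehicle, and the difference between those effects, are therefore given as descriptions, with counts of calls but no P value for a member. CCM against vehicle uses the same libraries and is given in the same way.

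RNA came from 1 FRC line, derived from lymph nodes of p53ER/ER mice on the C57BL/6 background, so other lines were not examined. Cells were cultured for 4 days in RPMI with water as the vehicle, in RPMI with 15 mM lactic acid (LA), in medium conditioned by FRCs themselves (control conditioned medium, CCM) or in medium conditioned by B16.F10 mouse melanoma cells (tumor cell-conditioned medium, TCM), and every medium contained added serum. Each condition had 2 libraries, which the study calls biological replicates. P-values rest on the spread between libraries of a condition, estimated jointly over all 8 libraries and moderated across genes. That spread may be technical if the cultures shared an origin. TCM was compared with CCM, LA with vehicle and CCM with vehicle, and these comparisons share libraries and are not independent of each other.

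Elastic fibers consist of a core of cross-linked elastin surrounded by fibrillin microfibrils. Cells secrete tropoelastin, the soluble product of Eln, and fibulins and lysyl oxidases guide its deposition on microfibrils and its cross-linking. Fibrillin microfibrils also bind latent TGF-β complexes, and in lymph nodes such fibers run in the reticular network and capsule, where FRCs are matrix producers.

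Counted reads ranged from 8232889 to 14107964 per library, and 3 counts, used as the detection floor, corresponded to 0.212 to 0.355 CPM (counts scaled to library size with TMM factors, on the usual CPM scale); floors cover counting error only. The 2 TCM libraries differed from each other more than other pairs did, with a chi-square per degree of freedom over genes of 20.6 against 3.31 to 7.45. SEs and calls for TCM rest on the spread shared by all conditions, not on that of the TCM pair. Of 11 FRC markers, 8 exceeded 1 CPM in at least 1 library, and their summed level was 832 to 981 CPM across libraries. Pdpn (114 to 187 CPM), Vcam1 (136 to 215 CPM), Pdgfra (46.6 to 67.2 CPM), Pdgfrb (267 to 509 CPM) and Ltbr (118 to 148 CPM) were present in each library. With TCM Pdpn stood at 187 and 185 CPM, against 114 to 140 CPM elsewhere, and Vcam1 at 215 and 199 CPM, against 136 to 184 CPM. Pdgfrb went the other way, at 267 and 318 CPM against 369 to 509 CPM, and for Pdgfra and Ltbr the TCM libraries overlapped the others. Thy1 (0.0925 to 1.75 CPM) and Il7 (0.559 to 1.83 CPM) passed 1 CPM only narrowly, and Icam1 and Ccl19 stayed below 1 CPM. The chemokine Ccl21a was at 0 throughout and Cxcl13 had counts in CCM 1 only, 43 of them. Markers of other cells were low: 5 of 6 hematopoietic markers were at 0, with Cd68 at most 1.86 CPM, the endothelial genes Kdr and Tek reached 1.31 and 4.59 CPM, and the epithelial gene Cdh1 reached 4.53 CPM. Cdh1 was lower with TCM, at 0.632 and 0.873 CPM, than in the other 6 libraries, at 1.66 to 4.53 CPM, and so was Tek, at 0.655 and 0.948 CPM against 2.01 to 4.59 CPM. The 7 melanoma markers summed to 2.29 and 2.63 CPM with TCM and to 1.82 to 3.67 CPM elsewhere, with Tyr at 0, Pmel at most 1.77 CPM and Mitf at most 2.05 CPM. Tyrp1, a pigment cell enzyme outside the naming rule and singled out after its values were seen, had 6 and 3 counts with TCM and 0 counts in the other 6 libraries. Dct, Sox10 and Mlana were also outside that rule. Dct had 1 count in each TCM library and 0 elsewhere, and Sox10 had 1 count, in TCM 2. Mlana had 1 count in LA 2 and 1 in TCM 1. The 6 contractile mural markers, all above 1 CPM in some library and led by Acta2 (4437 to 7040 CPM), summed to 6572 and 7768 CPM with TCM. Elsewhere they summed to 4800 to 6105 CPM. In mean CPM, Acta2 (6539 against 5061) and Tagln (607 against 476) were higher with TCM than with CCM. Cnn1 (21.7 against 24.3), Myh11 (1.07 against 2.16), Des (1.07 against 1.41) and Rgs5 (0.431 against 0.782) were lower. None was called by the rule given below, and Rgs5 was too low to test. The part of these differences in the results below was not tested.

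In this line the elastic fiber genes spanned a wide range of expression, described here as 3 tiers. Levels of different genes were compared as CPM per kb of exon, using the joined exon length over all annotated isoforms. This was 8098 bases for Eln and 1211 for Mfap2, and the isoforms present in these cells were not determined. Places of genes with close levels depend on this length, and the spread of libraries does not cover that error. In vehicle cells the order was led by Lox at 560 CPM per kb, followed by Fbn1 at 188, Fbln5 at 109, Efemp2 at 80.3 and Emilin1 at 60.2 CPM per kb, and the libraries of these neighbors did not overlap. The middle tier held Eln at 7.01 and Mfap2 at 6.06 CPM per kb, whose libraries overlapped. The lowest tier held Loxl1 at 0.900, Mfap5 at 0.237 and Fbn2 at 0.142 CPM per kb, of which Mfap5 and Fbn2 overlapped. By mean CPM, Lox ranked 20 and Fbn1 ranked 39 among the 12137 genes that passed the count filter, which all 10 members passed.

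The order differed between conditions. Eln held the sixth place with vehicle, the seventh with CCM and LA, where it stood below Mfap2 (5.27 against 8.72 CPM per kb with CCM and 4.97 against 11.8 with LA), and the eighth with TCM, at 0.265 CPM per kb, below Loxl1 at 0.845 CPM per kb. With TCM Fbln5, at 122 CPM per kb, stood above Fbn1, at 92.9 CPM per kb, and the Fbn1 libraries overlapped those of Efemp2, at 88.1 CPM per kb. Lox remained first, at 931 CPM per kb.

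**Figure D1:**
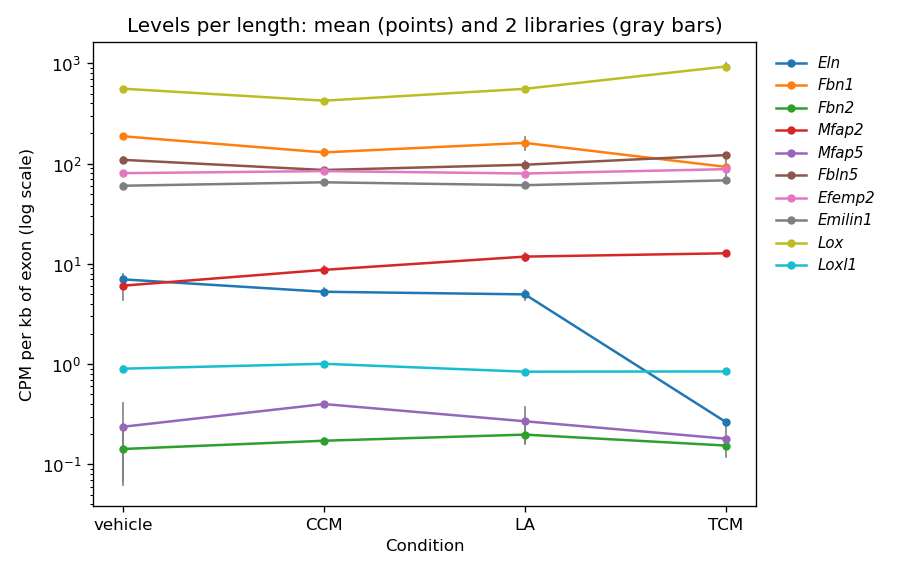
Mean level of each gene in CPM per kb of exon (log axis) in the 4 conditions; gray bars span the 2 libraries, and lines join conditions only as a guide. Lox was highest in each condition, and Eln dropped from 7.01 CPM per kb with vehicle to 0.265 with TCM.

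For TCM against CCM, 3 of 10 members were called, Lox and Fbln5 higher and Eln lower. A gene was called at a Benjamini-Hochberg adjusted P value under 0.05 and a log2 fold change (FC) beyond 0.39 in the edgeR quasi-likelihood fit. Of all 12137 genes, 19.1% were called in this comparison, 8.83% higher and 10.2% lower. The members were chosen with this comparison known, so nothing is read from their count. The median log2 FC was -0.05 over the members and 0.00 over all genes tested. For LA against vehicle 0 of 10 members were called by edgeR, and DESeq2 called 1, Mfap2. The share of all genes called was 2.55% there. In bulk RNA, fewer cells that express a gene and less RNA per cell cannot be told apart.

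**Figure D2:**
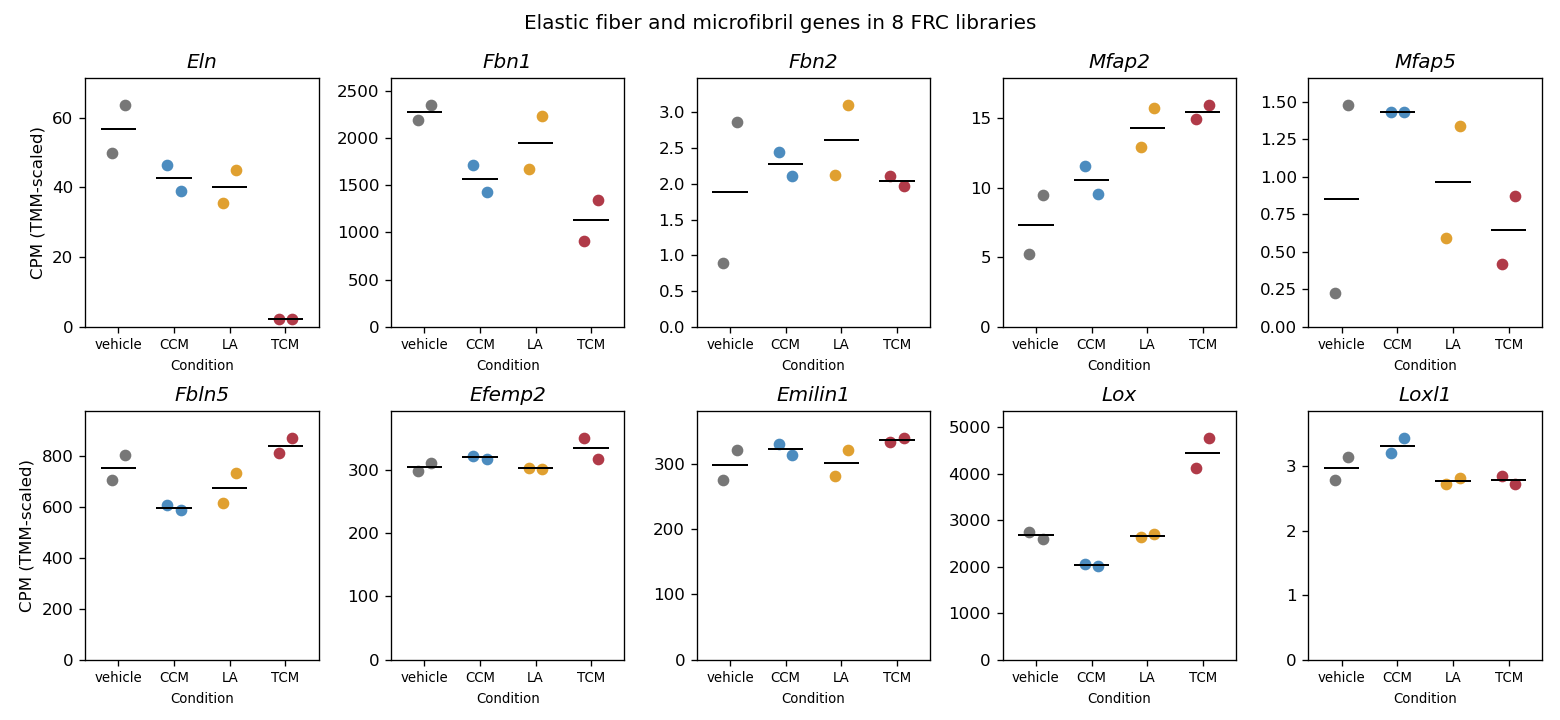
CPM of each member in the 8 libraries, with the mean of 2 libraries as a bar; each panel has its own linear axis from 0. Eln with TCM lies at 2.21 and 2.07 CPM, and Lox with TCM lies at 4126 and 4772 CPM, apart from the other libraries in both cases.

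Eln encodes elastin, the rubber-like core protein, and lies on the minus strand of chromosome 5 (GRCm38, 134702593 to 134747323). It stood at 49.8 and 63.6 CPM with vehicle, 46.6 and 38.8 CPM with CCM, 35.5 and 44.9 CPM with LA, and 2.21 and 2.07 CPM with TCM. The TCM libraries held 21 and 19 Eln counts, above the floor of 3, and lay far below the other 6, while CCM and LA libraries overlapped. The log2 FC for TCM against CCM was -4.31 (SE 0.233), a 19.8-fold lower level. By size of fall it ranked 8 among the 12137 genes tested. With LA the log2 FC against vehicle was -0.49 (SE 0.152), beyond the fold threshold in size, but it missed the adjusted P threshold. Of 16 alternatives 2 called it. They were the fit with no filter on low counts and a replicate block with the CCM numbers exchanged, the latter chosen after seeing the data. The opposite-strand transcript Gm30003, which shares 267 exon bases with Eln, had 0 to 1 counts per library.

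Fbn1 encodes fibrillin-1, the main building block of microfibrils, and lies on chromosome 2 (125300594 to 125507993, minus strand). It measured 2197 and 2352 CPM with vehicle, 1711 and 1430 CPM with CCM, 1669 and 2238 CPM with LA, and 906 and 1347 CPM with TCM. Both TCM libraries lay below all others, but they differed from each other by more than the CCM libraries did. The log2 FC for TCM against CCM was -0.48 (SE 0.189) and missed the adjusted threshold. DESeq2 placed it past the thresholds, at -0.47, and so did the fit without TCM 2, at -0.79, whereas the fit without TCM 1 gave -0.22. With LA the log2 FC was -0.22 (SE 0.189). The opposite-strand Gm9913 covers 20.1% of the Fbn1 exon bases and had 3 to 28 counts.

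Fbn2 encodes fibrillin-2, best known from developing tissue. It was near the lower limit, with 8 and 31 counts in vehicle libraries, 29 and 22 in CCM, 18 and 44 in LA, and 20 and 18 in TCM libraries, or 0.894 to 3.10 CPM. The conditions overlapped, and the log2 FC was -0.16 (SE 0.433) with TCM and 0.47 (SE 0.418) with LA.

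Mfap2 encodes MAGP-1, a small glycoprotein bound to fibrillin (chromosome 4, 141010418 to 141015984, plus strand). It stood at 5.25 and 9.44 CPM with vehicle, 11.6 and 9.56 CPM with CCM, 12.9 and 15.7 CPM with LA, and 15.0 and 15.9 CPM with TCM. The vehicle libraries were the lowest and the LA and TCM libraries overlapped at the top. The log2 FC was 0.95 (SE 0.233) for LA against vehicle and 0.54 (SE 0.221) for TCM against CCM, neither called in the edgeR fit as reported. The fit with no filter on low counts called both, and the replicate block called the first. A block with the CCM replicate numbers exchanged called both, but it was chosen after seeing the data. Some fits that left out 1 library differed from the reported fit as well. The LA value rested on the vehicle libraries, with 47 and 102 counts: it was 1.46 and called without vehicle 2, and 0.61 without vehicle 1. DESeq2 called it at 0.96.

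Mfap5 encodes MAGP-2, the relative of MAGP-1, and was the member with the fewest counts: 2 and 16 in vehicle libraries, 17 and 15 in CCM, 5 and 19 in LA, and 4 and 8 in TCM libraries. Its log2 FC for TCM against CCM was -1.14 (SE 0.664), beyond the fold threshold in size, but it missed the adjusted P threshold. At this depth that value has an approximate 95% interval from -2.44 to 0.16. For LA against vehicle the log2 FC was 0.21 (SE 0.643), which was not called. Vehicle 1 was the lowest library for Fbn2, Mfap2 and Mfap5 alike.

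Fbln5 and Efemp2 encode fibulin-5 and fibulin-4, relatives that bind tropoelastin and recruit lysyl oxidase, and they differed with TCM. Fbln5 (chromosome 12, 101746565 to 101819055, minus strand) measured 706 and 802 CPM with vehicle, 607 and 587 CPM with CCM, 614 and 734 CPM with LA, and 811 and 871 CPM with TCM. TCM libraries were the highest and CCM libraries the lowest, while vehicle and LA overlapped. The log2 FC for TCM against CCM was 0.49 (SE 0.117), a 1.41-fold rise. This call was lost without CCM 1, at 0.52, without CCM 2, at 0.47, and without TMM factors, at 0.35. For LA against vehicle the log2 FC was -0.16 (SE 0.117).

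Efemp2 (chromosome 19, 5473954 to 5482517, plus strand) ranged only from 298 to 350 CPM over the 8 libraries. It stood at 322 and 316 CPM with CCM and at 350 and 318 CPM with TCM, which overlap. The log2 FC was 0.06 (approximate 95% interval -0.12 to 0.24) with TCM and -0.01 (SE 0.0925) with LA, and the TCM value was -0.08 without TMM factors. Mus81, on the opposite strand, shares 173 exon bases with Efemp2 and had 159 to 299 counts.

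The bases just before the start of transcription of these fibulins are shown because Fbln5 was called with TCM and Efemp2 was not. They are RefSeq promoter windows on GRCm38.p6, cut to the 250 bases upstream of the start, at chr12:101819120-101819369 (minus strand) and chr19:5473696-5473945 (plus strand), and written 5′ to 3′ along each gene. RefSeq entries were at hand for 5 of the 10 members, and the windows shown, farthest upstream for each gene, hold 0 annotated exons. Capitals mark the GC box GGGCGG on either strand.
Fbln5: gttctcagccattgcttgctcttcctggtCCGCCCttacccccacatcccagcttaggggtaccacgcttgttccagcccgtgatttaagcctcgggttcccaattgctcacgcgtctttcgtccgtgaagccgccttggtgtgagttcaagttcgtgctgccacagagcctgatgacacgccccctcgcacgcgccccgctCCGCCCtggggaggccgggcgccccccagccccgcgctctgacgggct
Efemp2: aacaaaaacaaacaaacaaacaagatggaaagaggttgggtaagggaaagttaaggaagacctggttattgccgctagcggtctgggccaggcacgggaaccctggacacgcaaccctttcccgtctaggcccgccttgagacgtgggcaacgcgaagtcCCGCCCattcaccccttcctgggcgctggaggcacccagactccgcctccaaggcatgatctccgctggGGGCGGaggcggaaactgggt
Each window held 2 GC boxes, a motif found in 32.7% of all 32851 such windows, and the GC content was 65.2% for Fbln5 and 59.2% for Efemp2. Neither window held the TATA box TATAAA on either strand, which 12.4% of windows held. The AP-1 motif TGANTCA, held by 6.75% of windows on either strand, was in neither. The same was true of the TEAD motif GGAATG, held by 12.6% of windows on either strand. A match describes letters only, and these motifs did not distinguish the windows.

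Emilin1 encodes a glycoprotein at the interface of elastin and microfibrils (chromosome 5, 30913402 to 30921277, plus strand). It was among the steadiest members, at 274 and 320 CPM with vehicle, 330 and 314 CPM with CCM, 282 and 320 CPM with LA, and 334 and 339 CPM with TCM. Its log2 FC was 0.06 (approximate 95% interval -0.15 to 0.27) for TCM against CCM, or -0.08 without TMM factors, and 0.02 (SE 0.107) for LA against vehicle.

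Lox encodes lysyl oxidase, the copper enzyme that cross-links elastin and collagen (chromosome 18, 52516067 to 52529867, minus strand). It measured 2752 and 2595 CPM with vehicle, 2051 and 2011 CPM with CCM, 2633 and 2698 CPM with LA, and 4126 and 4772 CPM with TCM. The TCM libraries were well above the other 6, the CCM libraries were the lowest, and vehicle and LA overlapped. The log2 FC for TCM against CCM was 1.13 (SE 0.112), a 2.19-fold rise. For LA against vehicle the log2 FC was -0.00 (approximate 95% interval -0.22 to 0.21). Loxl1 encodes lysyl oxidase-like 1, an elastin-directed relative, and was low at 2.72 to 3.44 CPM (23 to 40 counts), with a log2 FC of -0.25 (SE 0.241) with TCM and -0.10 (SE 0.242) with LA.

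Within the set the balance of counts differed with TCM, while the total overlapped that of other libraries. Members took 0.613% and 0.720% of all counts with TCM and 0.489% to 0.649% elsewhere. Lox supplied 62.2% and 63.0% of the member counts with TCM and 40.2% to 47.4% elsewhere. The ratio of Lox to Fbn1 counts was 4.55 and 3.54 with TCM and 1.10 to 1.58 in the other 6 libraries, and the ratio of Fbn1 to Eln counts was 409 and 650 against 36.8 to 49.8.

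The TCM effect was next set against the LA effect, as the log2 FC for TCM against CCM minus that for LA against vehicle. The difference was -3.82 (SE 0.290) for Eln, 1.14 (SE 0.157) for Lox and 0.66 (SE 0.165) for Fbln5. These 3 of 10 were past the call thresholds, beside 10.4% of all genes, and since the contrast contains the TCM values known when the genes were chosen, this too is a description. The Fbln5 difference was no longer called without vehicle 1 (0.74), vehicle 2 (0.57), CCM 1 (0.68), CCM 2 (0.63) or LA 1 (0.53), or without TMM factors (0.51). The other 7 missed the adjusted P threshold, with differences from -1.35 (SE 0.929) for Mfap5 to 0.07 (SE 0.131) for Efemp2.

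The control media were compared in the same way. For CCM against vehicle 0 of 10 members were called by edgeR, beside 1.3% of all genes, and DESeq2 called 1, Lox. This contrast shares its libraries with the comparisons known when the members were chosen, so its values are descriptions too. Lower with CCM were Lox, with a log2 FC of -0.40 (SE 0.111), Fbn1 (-0.53, SE 0.189), Fbln5 (-0.34, SE 0.117) and Eln (-0.41, SE 0.152). The other 6 members had a log2 FC above 0. Lox, Fbn1 and Eln were past the thresholds when only the CCM and vehicle libraries were fitted, where 679 of all genes were called in place of 158. Because Lox and Fbln5 were lower with CCM than with vehicle, their TCM libraries stood closer to vehicle than to CCM.

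**Figure D3:**
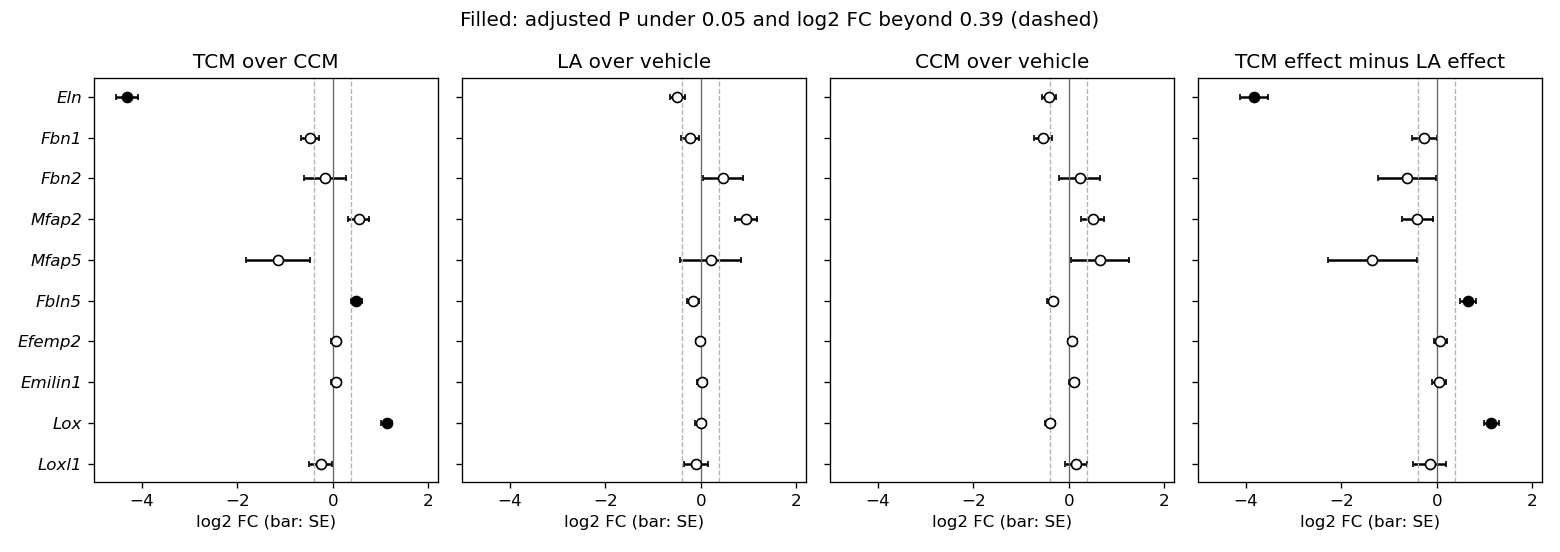
Log2 FC with SE (bars) of the 10 members in the 4 contrasts; filled points were called and dashed lines stand at a log2 FC of 0.39 in size. Eln (-4.31), Lox (1.13) and Fbln5 (0.49) are filled for TCM over CCM, and no point is filled for LA or CCM over vehicle.

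Genes related to the set by family, name or role were examined from a list of 46, of which 35 passed the count filter. A place in the list does not show that a gene acts in elastic fibers. For TCM against CCM 15 of the 35 were called, 6 higher and 9 lower, beside 19.1% of all genes tested (8.83% higher and 10.2% lower), and the median log2 FC of the 35 was 0.03 against 0.00 over all genes. The list was drawn up with earlier results of these data known, so its counts and the values below are descriptions. Fewer of the 35 were called when either CCM library was left out, and fewer of all genes were called as well. For LA against vehicle 1 of the 35 was called, beside 2.55% of all genes. It was Ctsa, the protective protein of the elastin receptor complex, which fell by 0.41 on the log2 scale (SE 0.0843), from 217 and 217 CPM to 166 and 161 CPM.

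From the related list, those named for the size of their called log2 FC with TCM were Mmp9, Pcolce2 and Mfap3l, which were lower, and Fbln7, which was higher. Mmp9, gelatinase B, which can cleave elastin, had 22 and 19 counts with CCM and 0 and 1 with TCM (log2 FC -4.82, SE 1.14). From counts pooled over libraries the CCM to TCM ratio was 34.3 (95% exact counting interval 5.81 to 1385). That interval leaves out the spread between libraries, which held 6 and 29 counts with vehicle and 6 and 28 with LA. Pcolce2, a procollagen C-proteinase enhancer, fell from 26.5 and 27.1 CPM to 12.1 and 7.42 CPM (log2 FC -1.45, SE 0.187). Mfap3l fell from 107 and 95.1 CPM to 35.4 and 40.8 CPM (log2 FC -1.41, SE 0.168). Fbln7, a further fibulin, rose from 3.04 and 3.73 CPM to 10.9 and 11.1 CPM (log2 FC 1.70, SE 0.233).

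By group of the list, and again beside 19.1% of all genes called for TCM against CCM, 2 of 4 tested fibulins were called, 1 in each direction. Of 5 genes listed by the name microfibril-associated (Mfap), 2 were called, both lower. None of the 4 latent TGF-β binding protein genes was called, nor any of the 3 further lysyl oxidase family genes. Of 7 tested genes for lysyl oxidase maturation and copper supply 4 were called, 1 higher and 3 lower. Of 4 tested ADAMTS and ADAMTSL genes 2 were called, 1 in each direction. Of 4 tested elastin-degrading proteases 3 were called, 1 higher and 2 lower, and of 3 elastin receptor complex genes 1 was called, higher. The single emilin tested was called higher.

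**Figure D4:**
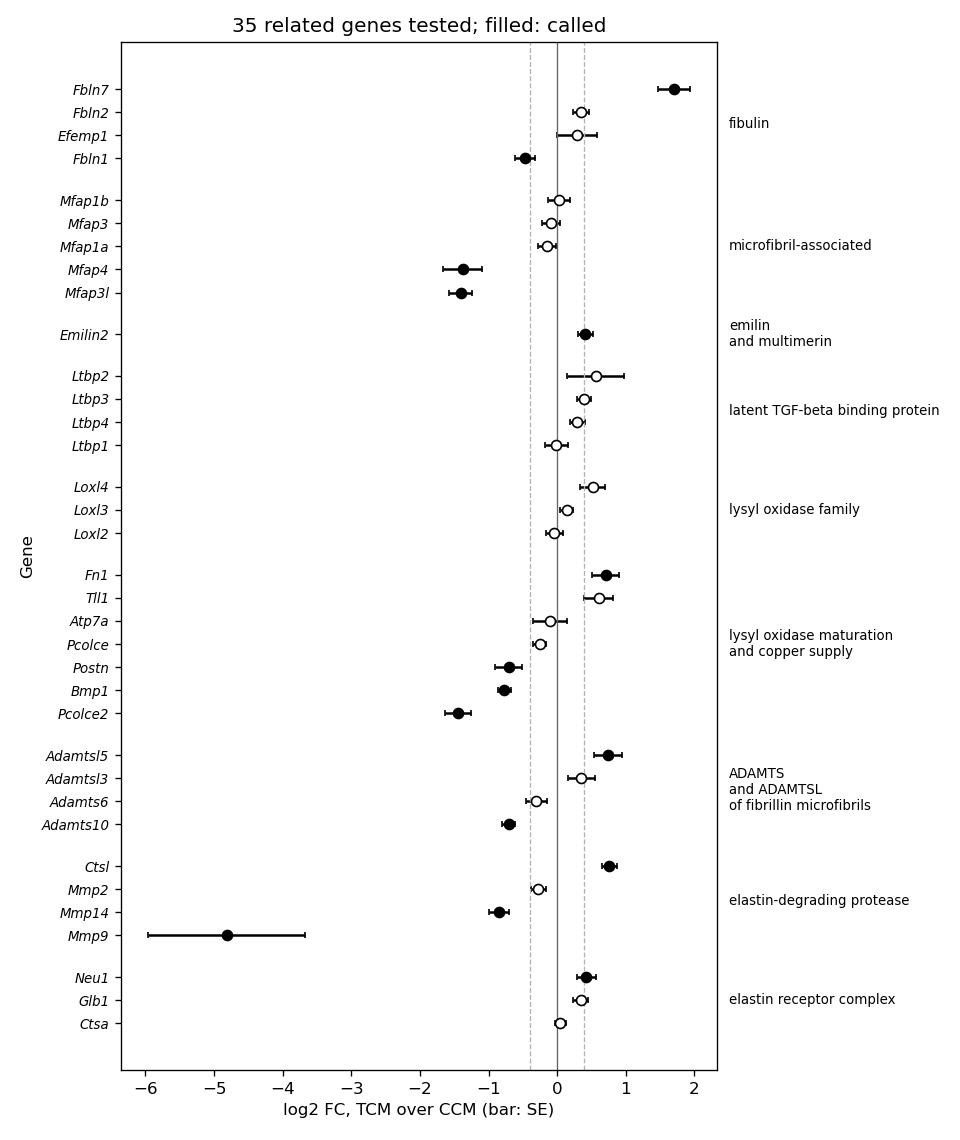
Log2 FC with SE (bars) of the 35 tested related genes for TCM over CCM, grouped by family, name or role. Filled points were called and dashed lines stand at 0.39 in size. Calls lie on both sides of 0, 6 higher and 9 lower, with Mmp9 farthest left and Fbln7 farthest right.

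The genes whose pattern over the 8 libraries was most like that of Eln were Arntl (Pearson r = 0.994), Cd248 (0.993), Map3k5 (0.992), Gja1 (0.990) and Mecom (0.990), on log2 CPM with the members left out. Arntl encodes the clock factor BMAL1, Cd248 a stromal surface glycoprotein, Map3k5 a stress kinase, Gja1 connexin 43 and Mecom a transcription factor. The libraries form a low TCM pair and 6 others, so r mostly reflects that split, and all points share library depth. Over the 6 libraries outside TCM r with Eln was 0.951 for Cd248, 0.790 for Mecom, 0.746 for Map3k5, 0.706 for Arntl and 0.412 for Gja1. Cd248 stood at 227 and 239 CPM with TCM and 459 to 594 CPM elsewhere, a smaller gap than that of Eln.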

How the data were processed

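Poly(A) RNA of 8 FRC libraries was sequenced by the authors from directional libraries. Per the labels, reads were aligned with STAR 2.7.0a to GRCm38 and counted with featureCounts (Subread 2.0.1), and the authors deposited raw counts per gene; DESeq2 1.32.0 is also named in the submitters' processing notes. Whether counting used strand is not given in the sources used here, so overlapping genes are uncertain. A second deposited table holds the same counts for the 12137 genes tested. Conditions were taken from the sample labels.

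Genes that reached 10 counts in 3 or more libraries were scaled with TMM factors and fitted in edgeR 4.0.16 (R 4.3.3; glmQLFit and glmQLFTest, robust) with 1 mean per condition and all 8 libraries. The SE is the size of the log2 FC divided by the square root of F. Approximate 95% intervals of a log2 FC span 1.96 SE to each side. They treat the estimate as normal and are narrower than intervals matched to the F test, so they cover less than 95%. With 2 libraries per condition an exact permutation test of 1 gene cannot give P under 0.333. Scripts were tested on simulated data. Alternatives were DESeq2 1.42.0, its size factors, no TMM factors, other filters and fold thresholds, only the libraries compared, a replicate block and leaving out each library. Positions and exon lengths come from GENCODE M21 on GRCm38.

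The members and lists were chosen with earlier results of these data known. Genes named were the 10 members, the 5 genes most like Eln, the 11 FRC markers and markers of other cells above 1 CPM. Of the related list the 4 called genes of largest log2 FC in each comparison were named.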

Additional observations from a re-analysis of the deposited data

How the results depend on the processing

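Over 622 recomputed gene values no called value changed direction, 584 kept their side of the thresholds, 9 lost a call, all of Fbln5, and 29 gained one. The 622 values include those of the crossed replicate block described below, which was chosen after seeing the data and gave some of the gained calls. Values that were not called could change sign, as did Efemp2 and Emilin1 for TCM against CCM without TMM factors (both -0.08), Fbn2 for CCM against vehicle (lowest -0.33) and Mfap5 for LA against vehicle (lowest -0.60). The Eln and Lox calls for TCM against CCM, and for the TCM effect against the LA effect, held under all alternatives run (Eln -4.45 to -4.17 and Lox 0.99 to 1.23 for TCM against CCM). Of the 10 members 3 were called for TCM against CCM, 5 with no filter on low counts and 2 to 4 on leaving out 1 library. For LA against vehicle 0 were called, 1 with DESeq2, 2 with no filter and 0 to 1 on leaving out 1 library. For CCM against vehicle 0 were called, 1 with DESeq2, 3 with no filter, 3 with only the libraries compared and 0 to 1 on leaving out 1 library. Leaving out 1 library gave 2 to 3 for the TCM effect against the LA effect. Related genes called for TCM against CCM numbered 15, 5 beyond a log2 FC of 1, and 9 to 14 on leaving out 1 library, with 9 without CCM 1 or CCM 2; for LA against vehicle 1 was called, 4 with no filter, 2 with only the libraries compared, 0 beyond 0.68, 0 beyond 1, and 0 to 2 on leaving out 1 library. The cause of these changes was not tested.

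Replicate numbers come from the labels, and same-numbered libraries deviated from their condition means with correlations from -0.242 to 0.353 over the 6 pairs of conditions, so they were not treated as pairs. With the number as a replicate block, 2367 genes were called for TCM against CCM in place of 2314, 1 member, Mfap2, was called for LA against vehicle (log2 FC 0.96), and members called for the other comparisons did not change in number. Because CCM and TCM correlated at -0.242, a crossed replicate block, in which the CCM numbers were exchanged, was chosen after seeing the data and gave 5 members for TCM against CCM, 2 for LA against vehicle, 3 for CCM against vehicle and 6 related genes for LA against vehicle.

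Without TMM factors the median log2 FC of all genes for TCM against CCM was -0.14 and 24.2% of calls were higher, against 46.3%, so log2 FC values are relative to that median. Over all genes, calls ranged from 760 to 2864 for TCM against CCM (2314 in the reported fit), 57 to 656 for LA against vehicle (310), 0 to 679 for CCM against vehicle (158) and 629 to 2540 for the difference of effects (1268). A fit that leaves out 1 library assumes that the remaining library of that condition varies like the others. Counts of 2 to 44 per library limit Fbn2, Mfap5 and Loxl1, and 19 to 21 limit Eln with TCM.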
